A study of Drosophila melanogaster with 15 samples.

Results

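Brains of late L3 larvae of Drosophila melanogaster with an extra X chromosome, the CDXX genotype, were compared with brains of Oregon larvae, a standard wild-type laboratory strain. CDXX larvae carried the attached-X chromosome C(1)DX together with a free X and so had 3 copies of X, and they were dissected 8 days after egg laying. Oregon larvae had 2 separate X chromosomes, and their age was not given. A further genotype, CDXY, carried the same C(1)DX with a Y chromosome instead of the free X, and its brains were taken at 5 days. Its values are set beside those of some genes, because it shares the attached X with CDXX but has 2 copies of X. All larvae were female and were raised at 25 ºC. Polyadenylated RNA was sequenced from 3 brains per library. CDXX and Oregon each had 3 libraries with the batch labels 4, 5 and 6, and replicates were made on different days, so the comparison used 6 of the 15 libraries of the series. The study asks how chromosomal imbalance bears on protein quality control and mitochondria in small brains. CDXX differs from Oregon in X copy number, in the attached-X chromosome and stock, and possibly in age, and these cannot be told apart here.

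Fruit flies balance the sex chromosomes by raising transcription of the single male X through the MSL complex, and in females Sxl represses msl-2 and keeps that complex from forming. An extra X in a female is not silenced by any comparable chromosome-wide machinery, and triplo-X females develop slowly and are mostly lethal. Products of a chromosome in excess often belong to complexes whose other subunits are encoded elsewhere, and unpartnered subunits are cleared by chaperones, the proteasome and autophagy. The late larval brain holds dividing neuroblasts, their ganglion mother cells, neurons and glia, and the hormone-producing ring gland is attached to it.

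The libraries held 22949943 to 28272926 counts each over 8990 genes, and levels are given as CPM, counts scaled to a common library total. The brain markers elav (251, 364 and 319 CPM in CDXX, against 267, 373 and 341 in Oregon), repo (164, 162 and 115 against 137, 127 and 114), brp (306, 334 and 269 against 267, 447 and 320) and nSyb (366, 327 and 417 against 292, 497 and 429) were abundant in all 6 libraries, and the neuroblast factor dpn was present at 5.65 to 10.1 CPM. Transcripts annotated as nuclear rRNA, all 14 of them on X, took 0.641%, 6.20% and 3.55% of the counts in CDXX, against 0.873%, 1.45% and 2.32% in Oregon. They are left out of the windows along X and of the X share of counts below, and are included in the other X-linked results. The ring gland enzyme gene phtm, which acts in ecdysone synthesis, ranged from 1.65 to 847 CPM within CDXX and from 1.19 to 468 CPM within Oregon, and so it varied more between libraries of 1 group than between the groups. In bulk tissue, fewer cells of a type and less RNA per cell cannot be told apart.

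Of 8981 genes tested, 3173 (35.3%) differed between CDXX and Oregon at an adjusted p under 0.05 (edgeR quasi-likelihood test, Benjamini-Hochberg). Among them 1680 (18.7%) were higher and 1493 (16.6%) lower in CDXX, and 649 (7.23%) differed by at least 2-fold. For 3959 genes (44.1%) the 3 CDXX libraries did not overlap the 3 Oregon libraries. The same test called 77 genes (0.857%) between CDXY and Oregon, with 29 (0.323%) higher and 48 (0.534%) lower in CDXY, and 3942 genes (43.9%) between CDXX and CDXY. These comparisons share libraries with the first. Because so many X-linked genes were higher, the scaling matters. With scaling factors taken from genes off X, 2005 genes were higher and 944 lower, so 68.0% of calls were higher, against 52.9% with factors from all genes. This moved the median log2 fold change of all genes from −0.004 to 0.075. Without CDXX replicate 6, 977 genes were lower. Groups of genes are described below by how many of their members were called, to be read against these shares of all genes.

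**Figure D1:**
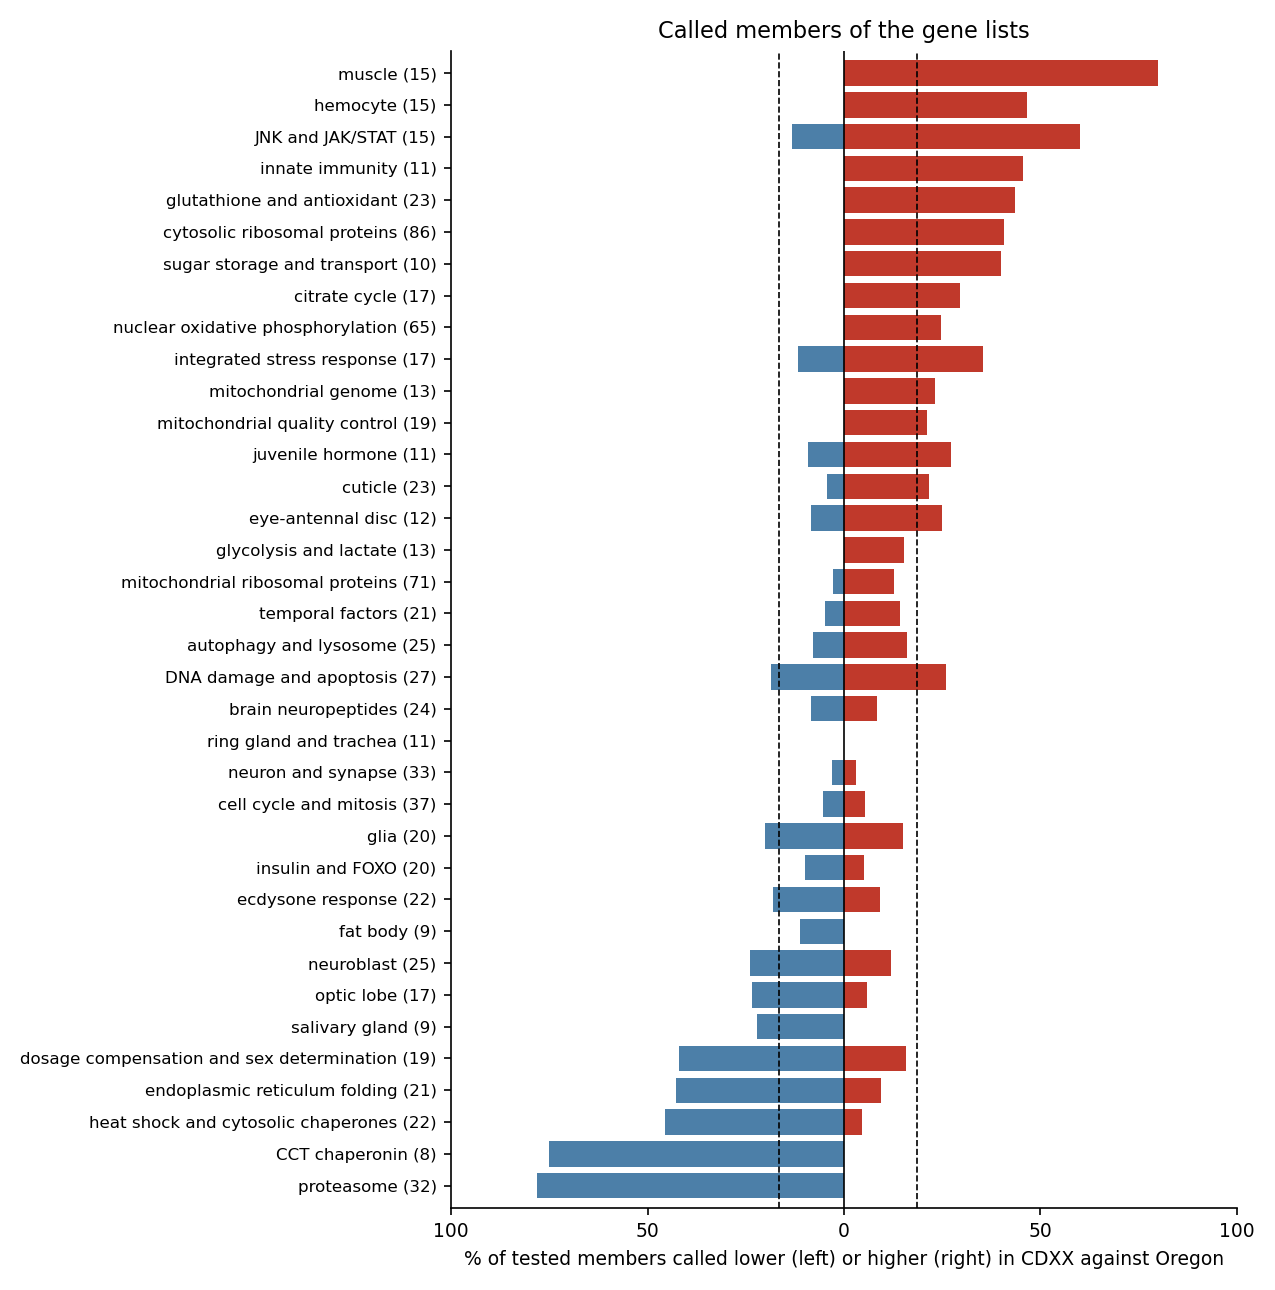
Share of the tested members of each gene list that were called higher (right, red) or lower (left, blue) in CDXX against Oregon, with the number of members in parentheses and dashed lines at the shares of all genes, 18.7% higher and 16.6% lower. Muscle markers lie at the top, with 12 of 15 higher, and the proteasome at the bottom, with 25 of 32 lower.

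X-linked genes were higher along the whole chromosome. Their median log2 fold change was 0.47, against −0.09 for all other genes, a difference of 0.56 or 1.47-fold, where 3 copies against 2 without any adjustment would give 0.585 on the log2 scale. Within batches 4, 5 and 6 the difference was 0.557, 0.511 and 0.564, a mean of 0.544 ± 0.029 (SD, n = 3 batches). As a score for each library, the median over X-linked genes minus that over other genes of the centred log2 CPM was 0.30, 0.26 and 0.25 in CDXX, against −0.27, −0.25 and −0.30 in Oregon. The groups did not overlap, and the exact two-sided permutation test gave p = 0.1, the smallest that 3 against 3 libraries allow. In CDXY the score was −0.27, −0.22 and −0.27, near that of Oregon. Leaving rRNA out, X-linked genes took 23.5%, 23.1% and 22.2% of all counts in CDXX, against 18.0%, 18.3% and 17.2% in Oregon, also without overlap (exact permutation p = 0.1).

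**Figure D2:**
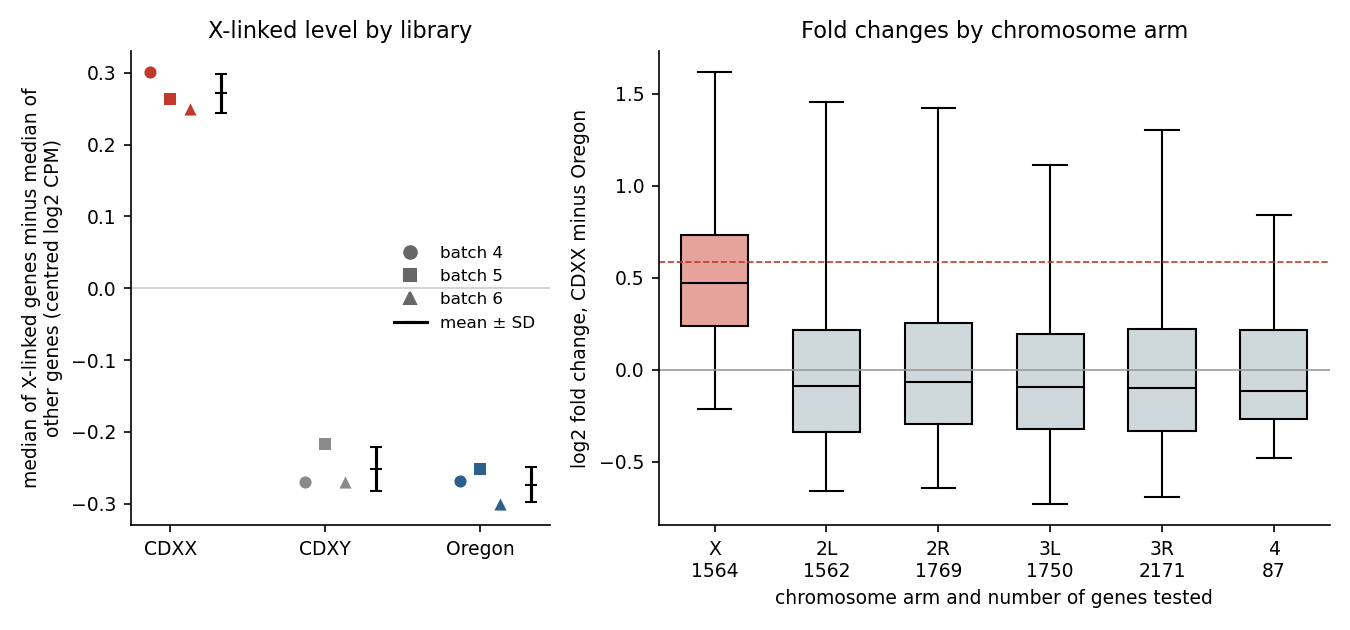
Left, median of X-linked genes minus median of other genes (centred log2 CPM) in each library of CDXX, CDXY and Oregon, with mean ± SD (n = 3). Right, log2 fold changes of CDXX minus Oregon by chromosome arm (box, quartiles and median; whiskers, 5th to 95th percentile; dashed line, 0.585, the value for 3 copies against 2). All 3 CDXX libraries lie above 0.2 and all others below −0.2, and the X median lies above the upper quartile of every other arm, whose medians run from −0.11 to −0.07.

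Of 1564 X-linked genes, 864 (55.2%) rose and 20 (1.28%) fell. For 90.3% of them the log2 fold change was positive. Off X, 816 of 7417 genes (11.0%) rose and 1473 (19.9%) fell. The shift did not come from one region. In windows of 2 Mb along X, leaving out rRNA, the median stood 0.49 to 0.62 above that of other genes in 11 of 12 windows and 0.72 above it in the window at 22 to 24 Mb, which held 32 genes. It was present at all levels of expression, with medians of 0.52, 0.47 and 0.41 for the lowest, middle and highest tertile of X-linked genes by CPM. Other genes in the same CPM ranges had medians of −0.02, −0.11 and −0.15, so the gap to them did not shrink at high levels. Genes on 2L, 2R, 3L and 3R had medians of −0.09, −0.07, −0.09 and −0.10, which became −0.01 for all genes off X with scaling factors from those genes. On chromosome 4, which in flies has its own chromosome-wide regulator Pof, the median was −0.11, with 5 of 87 genes higher and 13 lower. Pof itself had 26.9, 26 and 30.9 CPM in CDXX, against 29.5, 29.4 and 29.3 in Oregon (edgeR adjusted p = 0.521).

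The X-linked genes were not uniform. Of the 1564, 824 had a log2 fold change between 0.3 and 0.9, 332 one between 0 and 0.3, 151 one below 0, and 205 were at least 2-fold higher. RpL7A, a large-subunit ribosomal protein gene (FBgn0014026, X, 6530897 to 6533348 on dm6), had 5374, 4454 and 4930 CPM in CDXX, against 2560, 2306 and 2624 in Oregon. Its log2 fold change was 0.98 ± 0.11 (SE, edgeR adjusted p = 0.000133), and every CDXX library stood above every Oregon library. By contrast Act5C, the cytoplasmic actin gene and the most abundant X-linked mRNA by CPM, had 5796, 7524 and 5345 CPM in CDXX, against 7519, 7600 and 6463 in Oregon. Its groups overlapped and its log2 fold change was −0.21 ± 0.14 (edgeR adjusted p = 0.247, and 0.0415 without CDXX replicate 5). The spliceosomal and Sxl-pathway gene snf had 144, 162 and 119 CPM in CDXX, against 133, 133 and 139 in Oregon (log2 fold change 0.07, edgeR adjusted p = 0.664). The neuronal gene elav, also X-linked, had a log2 fold change of −0.07 (edgeR adjusted p = 0.834).

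Tsf1, the X-linked gene of the iron-binding protein transferrin (FBgn0022355, X, 18387084 to 18390344), rose most among abundant X-linked genes. It had 2164, 1645 and 1578 CPM in CDXX, against 43.7, 87.0 and 89.8 CPM in Oregon. Every CDXX library was more than 10-fold above every Oregon library, with a log2 fold change of 4.61 ± 0.49 (edgeR adjusted p = 0.000133), and CDXY was at 76.0, 48.8 and 91.9 CPM. CG15930 had 9.14, 6.33 and 7.76 CPM in CDXX, against 0.655, 0.396 and 0.253 in Oregon (log2 fold change 4.15 ± 0.52, edgeR adjusted p = 0.000259). It overlaps CG4198 on the opposite strand, and the library kit does not mark strand, so its reads cannot be assigned with certainty. The same limit holds for every gene described here with an antisense neighbour. The cuticle protein gene Cpr11A had 1.22, 4.36 and 13.0 CPM in CDXX, against 0.116, 0.108 and 0.0722 in Oregon (log2 fold change 5.91 ± 1.40, edgeR adjusted p = 0.00741). In CDXY it had 0.320, 0.245 and 4.35 CPM, which overlapped CDXX. It was not called between CDXX and CDXY (log2 fold change 1.92, edgeR adjusted p = 0.172) or between CDXY and Oregon (3.99, edgeR adjusted p = 0.338).

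A few genes differed from Oregon in both CDXX and CDXY. The X-linked multicopper oxidase gene Mco4 (FBgn0052557, X, 17852958 to 17856129) had 3, 0 and 1 counts in CDXX and 2, 0 and 4 counts in CDXY, against 237, 201 and 169 counts in Oregon (edgeR adjusted p = 0.000358 for CDXX and 0.00254 for CDXY). CG11617, on 2L, had 5, 2 and 4 counts in CDXX and 3, 15 and 11 counts in CDXY, against 116, 152 and 151 in Oregon (edgeR adjusted p = 9.32e-05 for CDXX and 0.00102 for CDXY). At these low counts CG11617 was also lower in CDXX than in CDXY (log2 fold change −1.37, edgeR adjusted p = 0.0432). It has antisense neighbours in mRpL10 and Tbc1d15-17. Both genes were also low in C2L and T2L, the remaining genotypes of the series. Mco4 was at 0 to 0.116 CPM there, against 6.10 to 9.13 in Oregon. CG11617 was at 0.296 to 0.540 CPM in C2L and 0.889 to 1.11 in T2L, against 4.47 to 5.47 in Oregon. For Mco4 and CG11617 Oregon thus stood apart from every other genotype, and the difference was not particular to attached-X larvae. The DNA helicase gene Blm, the fly homologue of the Bloom syndrome gene, had 16.3, 18.8 and 19.3 CPM in CDXX and 19.7, 18.5 and 21.8 in CDXY, against 34.1, 32.4 and 33.8 CPM in Oregon (edgeR adjusted p = 0.00012 for CDXX and 0.00114 for CDXY). CG4991, an X-linked gene whose exons overlap those of CG16700 on the same strand, had 14.4, 12.4 and 14.5 CPM in CDXX and 9.37, 9.37 and 2.38 in CDXY, against 1.12, 0.612 and 0.470 in Oregon (edgeR adjusted p = 0.000253 for CDXX and 0.00536 for CDXY). For these 4 genes the difference from Oregon was thus present without the extra X copy, and an effect of 3 copies cannot be read from it.

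Complexes whose subunits are split between X and the autosomes moved at different levels, and in each the X-linked subunits stood above their partners by a similar amount. The median log2 fold change of X-linked members was 0.58 above that of other members in the cytosolic ribosome (15 and 71 members), 0.52 in the mitochondrial ribosome (11 and 60), 0.50 in the nuclear-encoded respiratory chain (10 and 55), 0.50 in the proteasome (4 and 28) and 0.58 in the CCT chaperonin (2 and 6). The corresponding difference over all genes was 0.56. Within single batches these gaps ranged from 0.44 in the mitochondrial ribosome in batch 5 to 0.65 in the CCT chaperonin in batch 6. The members of a complex share libraries and are not replicates, so these are descriptions. The level around which each complex moved was not shared. The median of its members off X was 0.27 for the cytosolic ribosome, 0.11 for the respiratory chain, −0.07 for the mitochondrial ribosome, −0.37 for the CCT chaperonin and −0.52 for the proteasome, and with scaling factors from genes off X these became 0.35, 0.19, 0.01, −0.29 and −0.44.

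**Figure D3:**
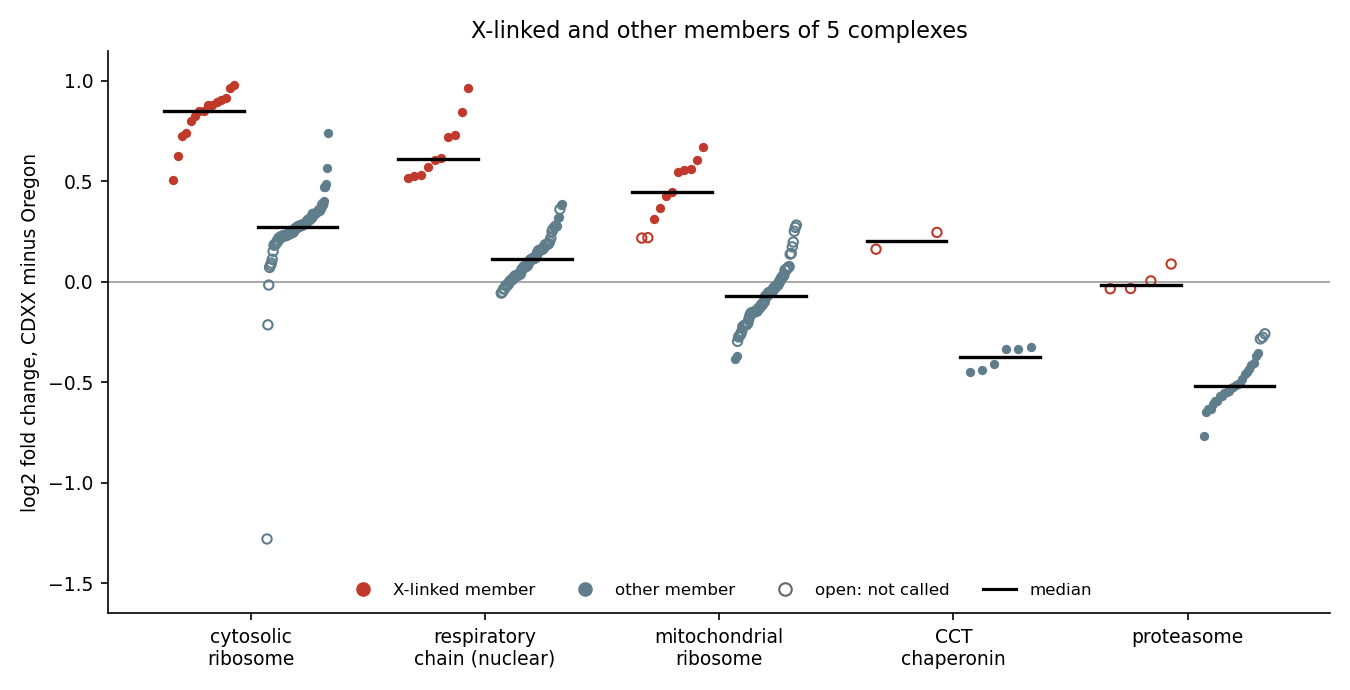
Log2 fold change of CDXX minus Oregon for each X-linked (red) and each other (grey) member of 5 complexes, filled where called and open where not, with a line at each median. In every complex the X-linked median lies 0.50 to 0.58 above the other, while the whole complex moves from above 0 in the ribosome to below 0 in the proteasome, where the X-linked subunits lie at −0.01. The outlying open point of the ribosome is RpS19b.

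The proteasome is the main protease of the cytosol and nucleus, a barrel of alpha and beta subunits capped by Rpn and Rpt subunits. Of its 32 measured subunit genes, 25 fell and 7 were not called, where 19.9% of all genes off X fell, and no subunit gene was higher at an unadjusted p under 0.05 or in DESeq2. The lid and base genes Rpn2 and Rpn12 were among the clearest. Rpn2 had 237, 289 and 233 CPM in CDXX, against 438, 389 and 352 in Oregon (log2 fold change −0.64 ± 0.11, edgeR adjusted p = 0.00136). Rpn12 (FBgn0028693, 3L, 16583028 to 16584022) had 84.7, 113 and 76.5 CPM in CDXX, against 165, 149 and 154 in Oregon (−0.77 ± 0.15, edgeR adjusted p = 0.00211). The ring gene Prosalpha7 (−0.57) and the ATPase gene Rpt2 (−0.65, with CG31142 on the opposite strand) fell in the same way, and no library of CDXX overlapped Oregon for any of these 4 genes. CDXX replicate 5 was the highest of its group for all of them. The 4 X-linked subunits, Prosalpha4, Rpt3, Rpt4 and Rpt6, lay between −0.04 and 0.09 and were not called (Rpt3 226, 285 and 227 CPM in CDXX, against 232, 233 and 229 in Oregon). The summed level of all 32 genes was 4906 to 6577 CPM in CDXX, against 7200 to 7775 in Oregon and 7201 to 7732 in CDXY. The count of lower subunits was 15 without CDXX replicate 4, 15 without CDXX replicate 6, 28 without CDXX replicate 5 and 16 when only the 6 libraries were fitted. With scaling factors from genes off X it was 18.

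Of 86 cytosolic ribosomal protein genes, 35 rose and 51 were not called. With batch as a block 70 rose, and with scaling factors from genes off X 60 did. All 15 X-linked genes rose, by a median of 0.85, from 0.51 for RpL22 to 0.98 for RpL7A. RpS5a had 2887, 2585 and 2650 CPM in CDXX, against 1556, 1327 and 1528 in Oregon (log2 fold change 0.88 ± 0.10, edgeR adjusted p = 0.000133). RpS6, the target of S6 kinase, had 3403, 2895 and 2948 CPM in CDXX, against 1902, 1777 and 1917 in Oregon (0.72 ± 0.09, edgeR adjusted p = 0.000255). Of 71 genes off X, 20 rose, or 28.2%, against 11.0% of all genes off X, and their median was 0.27. RpL41, on 2R, had 2660, 2099 and 2431 CPM in CDXX, against 1763, 1407 and 1692 in Oregon (0.56 ± 0.14, edgeR adjusted p = 0.0105). RpS15Ab, also on 2R, rose by 0.74, but it is a near-identical copy of the X-linked RpS15Aa (0.82), so reads of the pair may be split between them. The summed ribosomal level was 136690 to 162709 CPM in CDXX, against 101299 to 116906 in Oregon. The count of higher genes was 19 without CDXX replicate 4, 18 without Oregon replicate 5 and 17 in the fit of the 6 libraries.

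Mitochondrial genes rose mainly where they were X-linked. Of 65 nuclear genes of the respiratory chain, 16 rose and 49 were not called, among them all 10 X-linked genes and 6 of the 55 others. ND-20, a core subunit of complex I, had 163, 151 and 187 CPM in CDXX, against 87.9, 85.8 and 105 in Oregon (log2 fold change 0.85 ± 0.10, edgeR adjusted p = 0.000206). ND-18, another complex I subunit with CG12204 on the opposite strand, had 83.2, 74.7 and 84.1 CPM in CDXX, against 46.4, 46.1 and 53.3 in Oregon (0.73 ± 0.08, edgeR adjusted p = 0.00012). Without Oregon replicate 6, 25 of the 65 rose, and in the fit of the 6 libraries 10 did. Of 71 mitochondrial ribosomal protein genes, 9 rose and 2 fell, and all 9 were among the 11 on X, where the largest was mRpL49 (0.67 ± 0.13, edgeR adjusted p = 0.0022). The 2 that fell, mRpL32 and mRpL52, each lost the call without any of 4 libraries (edgeR adjusted p = 0.0646 to 0.138), and without Oregon replicate 5, 6 of the 71 fell. Of 19 genes of mitochondrial dynamics, import and quality control, 4 rose, and these were the 4 on X. Pink1, the kinase that marks damaged mitochondria for removal (FBgn0029891, X, 6683798 to 6687302), had 136, 115 and 120 CPM in CDXX, against 58.5, 61.6 and 62.4 in Oregon (1.02 ± 0.10, edgeR adjusted p = 9.32e-05). The mitofusin gene Marf (0.88 ± 0.15), the chaperone gene Hsp60A (0.85 ± 0.19) and the import pore gene Tom40 (0.50 ± 0.09) were also higher in all 3 CDXX libraries than in any Oregon library. The median of the other 15 was 0.01. Of 17 genes of the citrate cycle and pyruvate dehydrogenase, 5 rose, 3 of them X-linked. Idh3a had 383, 360 and 422 CPM in CDXX, against 188, 227 and 256 in Oregon (0.80 ± 0.12, edgeR adjusted p = 0.000618), while Idh3g, a partner subunit on 3R with RpL27 on the opposite strand, rose by 0.56 ± 0.12 (edgeR adjusted p = 0.00495).

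Among genes of cytosolic chaperones, 6 of 8 CCT genes and 10 of 22 heat shock and other chaperone genes fell. CCT is a ring of 8 subunits that folds actin and tubulin. All 6 of its genes off X fell, by 0.33 to 0.45 on the log2 scale, and CCT1 had 252, 289 and 263 CPM in CDXX, against 358, 340 and 399 in Oregon (−0.45 ± 0.10, edgeR adjusted p = 0.00432). The X-linked CCT2 and CCT6, at 0.16 and 0.25, were not called. The lower CCT genes numbered 2 without CDXX replicate 4, 3 without CDXX replicate 6 or Oregon replicate 6, 1 in the fit of the 6 libraries, and 4 with scaling factors from genes off X, where 2 were higher. Of 22 heat shock and cytosolic chaperone genes, none of them X-linked, 10 fell and 1 rose. Hsp110, the nucleotide exchange factor of Hsp70, had 254, 335 and 273 CPM in CDXX, against 410, 450 and 464 in Oregon (−0.62 ± 0.12, edgeR adjusted p = 0.00212). Droj2, a DnaJ-type cochaperone gene, fell by 0.46 on the log2 scale with CDXX at 379, 352 and 351 CPM, against 512, 493 and 484 in Oregon (edgeR adjusted p = 0.00136).

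Among small heat shock protein genes, Hsp27 and Hsp23 were among those that fell, while Hsp26 (−0.68, edgeR adjusted p = 0.165) and l(2)efl (1.14, edgeR adjusted p = 0.136, with St3 on the opposite strand) were not called. Hsp27 had 733, 1056 and 490 CPM in CDXX, against 3161, 1960 and 1496 in Oregon (log2 fold change −1.54 ± 0.34, edgeR adjusted p = 0.00489, with CR43483 on the opposite strand). Hsp23 had 741, 1060 and 518 CPM in CDXX, against 2467, 1857 and 1623 in Oregon (−1.36 ± 0.29, edgeR adjusted p = 0.00432). Their groups did not overlap, and CDXY lay on the Oregon side at 2148 to 3128 CPM for Hsp23. Hsp83, the cytosolic Hsp90 gene, had 1291, 1215 and 1435 CPM in CDXX, against 1757, 2061 and 2542 in Oregon (−0.69, edgeR adjusted p = 0.0182, and 0.0507 to 0.0669 without CDXX replicate 4, CDXX replicate 5 or Oregon replicate 6). The 1 gene of the list that rose was stv, the starvin gene of the BAG family of Hsp70 cochaperones. It had 50.4, 47.1 and 40.4 CPM in CDXX, against 13.3, 18.5 and 17.3 in Oregon (1.49 ± 0.27, edgeR adjusted p = 0.00189). The inducible Hsp70 copies were high in 1 library only. Hsp70Aa had 58.4, 4.32 and 7.05 CPM in CDXX, against 4.43, 7.84 and 6.86 in Oregon, and was not called (edgeR adjusted p = 0.0747). These copies are near-identical and may share reads. DESeq2 called 7 genes of the list higher, and edgeR called 7 without CDXX replicate 5 and 5 without CDXX replicate 6.

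In the endoplasmic reticulum, 9 of 21 folding and degradation genes fell and 2 rose, or 1 rose without CDXX replicate 6 or Oregon replicate 6. The Hsp90 homologue Gp93 had 348, 384 and 370 CPM in CDXX, against 626, 582 and 567 in Oregon (log2 fold change −0.69 ± 0.09, edgeR adjusted p = 0.000358), with CG4951 on the opposite strand. The lectin chaperone gene Calr had 729, 795 and 671 CPM in CDXX, against 1273, 1069 and 1148 in Oregon (−0.67 ± 0.11, edgeR adjusted p = 0.000959), and the related Cnx99A fell by 0.61 on the log2 scale. CDXY lay near the Oregon levels, with 1061 to 1292 CPM for Calr. The X-linked BiP gene Hsc70-3, the main target of the unfolded protein response, had 689, 887 and 780 CPM in CDXX, against 1203, 987 and 851 in Oregon, and was not called (−0.37 ± 0.15, edgeR adjusted p = 0.0798, and 0.0393 without Oregon replicate 6). The glucosidase subunit gene GCS2alpha, on X, rose, with 677, 714 and 707 CPM in CDXX, against 487, 519 and 481 in Oregon (0.50 ± 0.07, edgeR adjusted p = 0.000351).

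**Figure D4:**
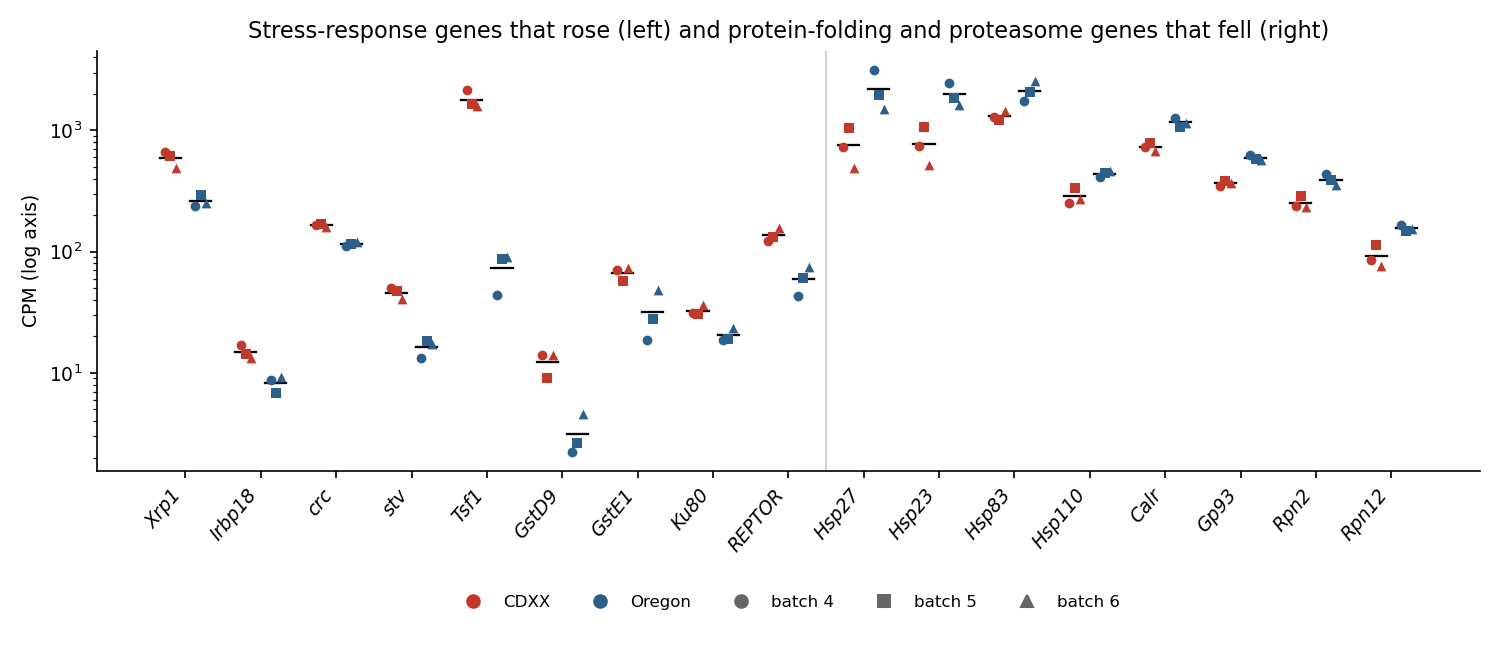
CPM in each CDXX (red) and Oregon (blue) library on a log axis, with a line at each mean, for stress-response genes that rose (left of the grey line) and for folding and proteasome genes that fell (right of it). For all 17 genes the 3 CDXX libraries lie wholly above or wholly below the 3 Oregon libraries, from Tsf1 at 1578 to 2164 CPM in CDXX to Hsp27 at 490 to 1056 CPM. All 17 were chosen from called genes, some after their values were seen, so this was largely set by the choice. Of all genes tested, 44.1% did not overlap, and Thor, Hsp70Aa and Hsc70-3, which overlap, are not shown.

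Some regulators of the response to translational stress rose, among them Xrp1, Irbp18 and crc. Xrp1, a bZIP transcription factor induced by ribosomal protein loss, DNA damage and protein stress (FBgn0261113, 3R, 18914968 to 18926989), had 663, 621 and 490 CPM in CDXX, against 237, 293 and 251 in Oregon. Its log2 fold change was 1.18 ± 0.18 (edgeR adjusted p = 0.000755), and CDXY was at 245, 172 and 234 CPM. Its dimer partner Irbp18 had 17, 14.4 and 13.3 CPM in CDXX, against 8.75, 6.87 and 9.25 in Oregon (0.85 ± 0.16, edgeR adjusted p = 0.0022), with CG33947 on the opposite strand. The ATF4 gene crc had 165, 168 and 161 CPM in CDXX, against 112, 116 and 119 in Oregon (0.51 ± 0.14, edgeR adjusted p = 0.0145), with CG46314 on the same strand. Shmt, the X-linked serine hydroxymethyltransferase gene of one-carbon metabolism, had 163, 146 and 142 CPM in CDXX, against 69.8, 71.1 and 84.2 in Oregon (1.00 ± 0.18, edgeR adjusted p = 0.00144). Of the 17 genes of the integrated stress response list, 6 rose and 2 fell, where 0 fell without CDXX replicate 4 or CDXX replicate 6 and 1 without Oregon replicate 4 or 5. The translation repressor gene Thor, a target of both ATF4 and FOXO, had 23.7, 16.0 and 65.7 CPM in CDXX, against 56.4, 11.5 and 3.58 in Oregon, and its groups overlapped (edgeR adjusted p = 0.766).

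Antioxidant genes rose in part. Of 23 genes of glutathione and redox metabolism, 10 rose, 8 of them off X. GstD9 had 14.1, 9.16 and 13.9 CPM in CDXX, against 2.23, 2.66 and 4.59 in Oregon (log2 fold change 1.97 ± 0.30, edgeR adjusted p = 0.000687). GstO1 had 10.5, 9.40 and 9.31 CPM in CDXX, against 4.01, 3.49 and 4.44 in Oregon (1.29 ± 0.31, edgeR adjusted p = 0.00785). The X-linked thioredoxin reductase gene Trxr1 (0.39 ± 0.06) and peroxiredoxin gene Prx2 (0.68 ± 0.13) also rose. Gst genes lie in clusters of similar copies, and reads may be shared among them. The higher genes numbered 6 without CDXX replicate 6, without Oregon replicate 5 and in the fit of the 6 libraries.

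Growth pathway genes had few called members, while clearance genes rose at about the share of all genes. Of 20 insulin and FOXO pathway genes, 1 (5.0%) rose and 2 (10.0%) fell, against 18.7% and 16.6% of all genes. Without CDXX replicate 6 or Oregon replicate 5, 1 of these 20 fell, and without Oregon replicate 6, 4 did. REPTOR, a transcription factor held in the cytoplasm by TOR complex 1, had 121, 133 and 156 CPM in CDXX, against 43.1, 60.8 and 74.6 in Oregon (log2 fold change 1.20 ± 0.25, edgeR adjusted p = 0.00365). The kinase gene mTor had 78.1, 85.0 and 84.3 CPM in CDXX, against 118, 140 and 120 in Oregon (−0.61 ± 0.11, edgeR adjusted p = 0.00151). Akt fell by 0.43 on the log2 scale, a call that was lost without CDXX replicate 4, CDXX replicate 6 or Oregon replicate 5 (edgeR adjusted p = 0.0798 to 0.0811). Among 25 genes that act in autophagy or lysosomes, 4 (16.0%) rose, 3 of them X-linked. In the same list 2 (8.0%) fell, or 1 without CDXX replicate 6 or Oregon replicate 4. Atg8a, whose product coats the autophagosome membrane, had 443, 431 and 418 CPM in CDXX, against 262, 271 and 253 in Oregon (0.72 ± 0.07, edgeR adjusted p = 9.32e-05). Atg101 had 41.8, 35.3 and 44.6 CPM in CDXX, against 28.1, 27.8 and 25.9 in Oregon, and was lower still in CDXY at 19.1, 20.2 and 20.5. Npc2a, a sterol-binding lysosomal gene on 2L, had 70.3, 65.7 and 60.6 CPM in CDXX, against 165, 120 and 134 in Oregon (−1.09 ± 0.12, edgeR adjusted p = 0.000163).

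DNA repair and signalling genes split. Of 27 genes of DNA damage and apoptosis, 7 (25.9%) rose and 5 (18.5%) fell, against 18.7% and 16.6% of all genes. The end-joining gene Ku80 had 31.3, 30.4 and 36.5 CPM in CDXX, against 18.8, 19.0 and 23.4 in Oregon (log2 fold change 0.68 ± 0.11, edgeR adjusted p = 0.00093), and its partner Irbp, the fly Ku70, had 23.4, 19.9 and 22.5 CPM against 12.8, 11.9 and 16.8 (0.67 ± 0.17, edgeR adjusted p = 0.00922). The ATR kinase gene mei-41, on X, rose by 0.61 ± 0.11 (edgeR adjusted p = 0.00199), while grp, the Chk1 kinase gene that acts after it, fell by 0.41 on the log2 scale (edgeR adjusted p = 0.00251), with overlapping genes on both strands. The caspase inhibitor gene Diap1 had 363, 309 and 257 CPM in CDXX, against 493, 496 and 394 in Oregon (−0.57 ± 0.13, edgeR adjusted p = 0.00618). The caspase genes Dcp-1 (−0.50, edgeR adjusted p = 0.0161) and Drice (−0.53, edgeR adjusted p = 0.0134) fell by a similar amount, and Dronc and Dark were not called. The death genes hid and rpr were not called (hid 17.4, 28.5 and 21.3 CPM in CDXX, against 21.8, 17.9 and 10.3 in Oregon). The higher genes of this list numbered 3 without CDXX replicate 6 or Oregon replicate 5, 4 without CDXX replicate 4 or Oregon replicate 4, and 3 in the fit of the 6 libraries, and without CDXX replicate 6 the lower ones numbered 3. Of 15 genes of JNK and JAK/STAT signalling, 9 rose and 2 fell, and all 6 X-linked members rose. Without CDXX replicate 4, CDXX replicate 6, Oregon replicate 4 or Oregon replicate 5, 1 fell. The gene hep, for the kinase that activates JNK, had 179, 189 and 159 CPM in CDXX, against 115, 122 and 87.4 in Oregon (0.70 ± 0.14, edgeR adjusted p = 0.00273). The ligand gene upd1 had 10.9, 6.76 and 17.3 CPM in CDXX, against 1.66, 3.71 and 3.58 in Oregon (1.97 ± 0.47, edgeR adjusted p = 0.0073), and Socs36E, a target and inhibitor of JAK/STAT on 2L, rose by 0.36 ± 0.08 (edgeR adjusted p = 0.00359). The JNK gene bsk, on 2L, had 97.3, 113 and 101 CPM in CDXX, against 147, 150 and 146 in Oregon (−0.51 ± 0.11, edgeR adjusted p = 0.00488).

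Genes of sugar breakdown varied widely between the Oregon libraries. The 13 genes of glycolysis and lactate summed to 8209, 5868 and 11372 CPM in CDXX, against 2523, 3723 and 7458 in Oregon, so CDXX replicate 5 lay below Oregon replicate 6, and CDXY had 2235 to 3370. Only the X-linked Hex-A and Gapdh2 rose. Hexokinase Hex-A had 705, 501 and 807 CPM in CDXX, against 205, 239 and 385 in Oregon (log2 fold change 1.28 ± 0.36, edgeR adjusted p = 0.0171). Gapdh2 had 1931, 1416 and 2871 CPM in CDXX, against 370, 585 and 1237 in Oregon (1.50 ± 0.43, edgeR adjusted p = 0.0174). The lactate dehydrogenase gene Ldh had 189, 82.2 and 342 CPM in CDXX, against 13.9, 28.7 and 137 in Oregon, and was not called (edgeR adjusted p = 0.0787). Without Oregon replicate 6, 11 of the 13 rose, and without CDXX replicate 6, Oregon replicate 4 or Oregon replicate 5, 0 did, with edgeR adjusted p = 0.057 to 0.0642 for Hex-A and 0.056 to 0.0682 for Gapdh2. With all libraries, 4 of them had an unadjusted p under 0.05 and DESeq2 called 3. Of 10 genes of trehalose and glycogen handling, 4 rose. The trehalose transporter gene Tret1-1 had 106, 115 and 98.1 CPM in CDXX, against 27.2, 26.7 and 50.2 in Oregon (1.62 ± 0.44, edgeR adjusted p = 0.0147, and 0.0535 and 0.0566 without Oregon replicates 4 and 5). Its paralog Tret1-2 had 5.53, 6.86 and 4.97 CPM in CDXX, against 1.31, 1.55 and 2.31 in Oregon (1.74 ± 0.41, edgeR adjusted p = 0.00681). The count of 4 was 2 without CDXX replicate 6 and 1 without Oregon replicate 4 or 5.

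**Figure D5:**
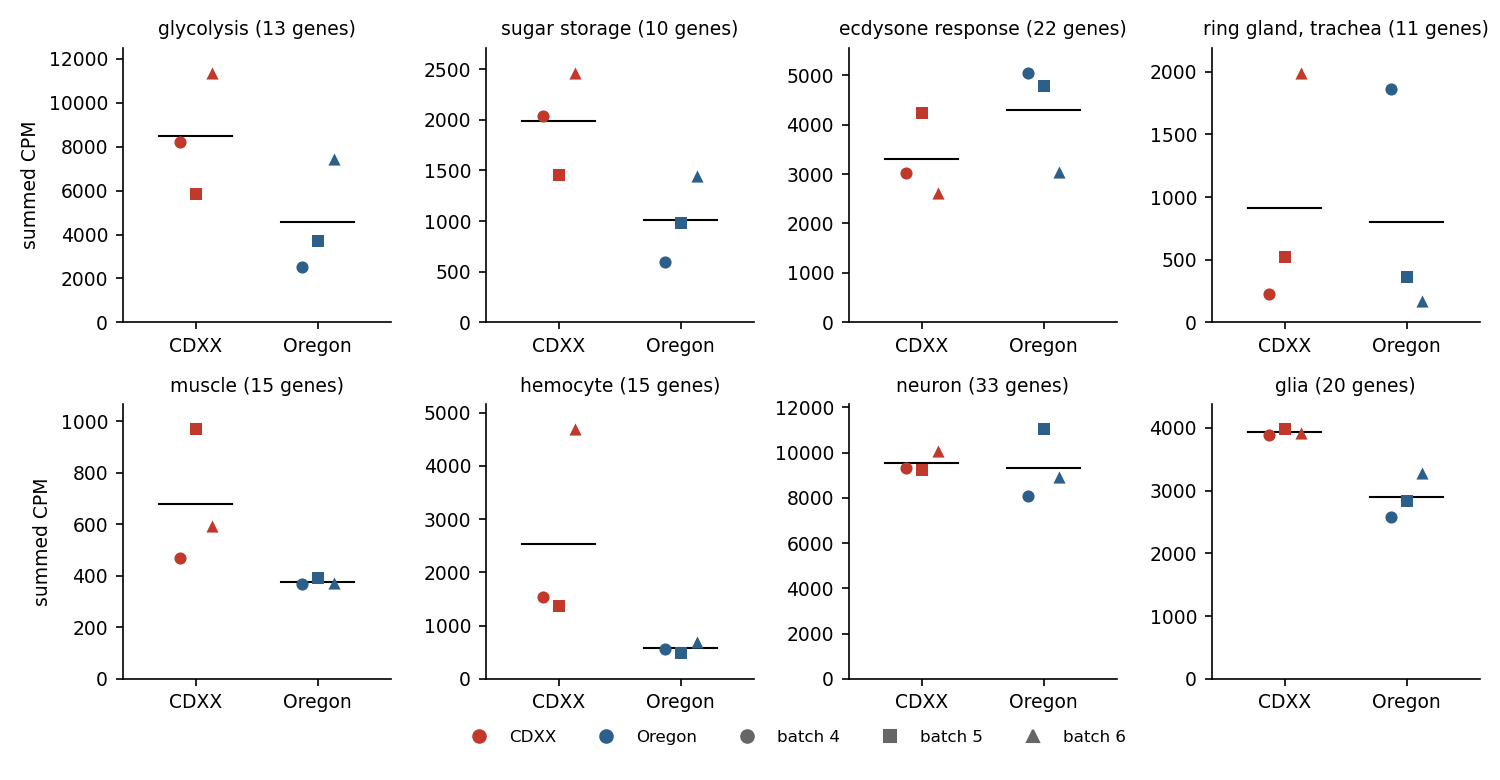
Summed CPM of 8 gene lists in each CDXX (red, left) and Oregon (blue, right) library, with a line at each mean, symbols for batches and axes from 0. Glycolysis, the ecdysone response, neurons, and the ring gland and trachea overlap between groups. The glia, muscle and hemocyte sums are higher in all 3 CDXX libraries, with the hemocyte list at 4687 CPM in CDXX replicate 6.

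Hormone-responsive genes bear on developmental stage, since pulses of ecdysone drive the end of larval life. Of 22 ecdysone-responsive genes, 4 fell and 2 rose, but the calls rested on single libraries. The lower genes numbered 1 without CDXX replicate 4, CDXX replicate 6, Oregon replicate 4 or Oregon replicate 5, 8 without Oregon replicate 6 and 0 in the fit of the 6 libraries, where 0 were higher, and DESeq2 called 9 lower. The higher ones numbered 1 without CDXX replicate 6, Oregon replicate 5 or Oregon replicate 6. With all libraries 9 were lower and 2 higher at an unadjusted p under 0.05. ImpE1, an ecdysone-inducible gene, had 39.1, 89.1 and 12.9 CPM in CDXX, against 806, 302 and 91.3 in Oregon (log2 fold change −3.09 ± 0.82, edgeR adjusted p = 0.0133, and 0.0611 without Oregon replicate 4). The early gene Eip74EF had 59.5, 130 and 60.2 CPM in CDXX, against 161, 246 and 137 in Oregon (edgeR adjusted p = 0.0169, and 0.0639 to 0.0708 without CDXX replicate 4, CDXX replicate 6 or Oregon replicate 5). The competence factor gene ftz-f1 rose, with 42.9, 37.3 and 68.5 CPM in CDXX, against 14.4, 18.0 and 31.2 in Oregon (1.23 ± 0.31, edgeR adjusted p = 0.00964), with lncRNA:CR45939 on the same strand. Oregon replicate 6 was nearest to CDXX for ImpE1 and ftz-f1, as it was for glycolysis. The receptor gene EcR and the early gene br were not called (br 1328, 2006 and 1067 CPM in CDXX, against 1327, 1579 and 1127 in Oregon). Ptth, the brain peptide that triggers ecdysone synthesis, had 4.87, 9.93 and 2.68 CPM in CDXX, against 18.1, 16.2 and 12.0 in Oregon (−1.42 ± 0.39, edgeR adjusted p = 0.0155, and 0.0547 without CDXX replicate 4). The X-linked juvenile hormone receptor genes gce (0.89 ± 0.15, edgeR adjusted p = 0.00101) and Met (0.73 ± 0.15, edgeR adjusted p = 0.00362) both rose.

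Of 19 genes of dosage compensation and sex determination, 3 rose and 8 fell. The histone acetyltransferase gene mof, on X, had 40.9, 33.9 and 39 CPM in CDXX, against 27.9, 23.6 and 28.1 in Oregon (log2 fold change 0.52 ± 0.10, edgeR adjusted p = 0.00239). The autosomal partners in the MSL complex were lower. The helicase gene mle had 100, 94.9 and 95.5 CPM in CDXX, against 129, 141 and 127 in Oregon (−0.45 ± 0.08, edgeR adjusted p = 0.00134), and msl-1 (−0.27, edgeR adjusted p = 0.013) and msl-3 (−0.24, edgeR adjusted p = 0.0293) fell less. The msl-1 call was lost without CDXX replicate 4 (edgeR adjusted p = 0.0523) and that of msl-3 without any of 4 libraries (0.0528 to 0.0965). The gene msl-2, for the MSL subunit that Sxl represses in females, had 34.3, 31.3 and 40.4 CPM in CDXX, against 38.4, 45.5 and 42.4 in Oregon, and was not called (edgeR adjusted p = 0.0676). The noncoding RNA lncRNA:roX1 had 338, 354 and 635 CPM in CDXX, against 235, 140 and 309 in Oregon (0.96 ± 0.36, edgeR adjusted p = 0.0561, and 0.0353 without Oregon replicate 6), with ec on the opposite strand. Among recruiters and chromatin factors, Clamp (−0.36), egg (−0.42) and JIL-1 (−0.32) fell, the JIL-1 call being lost without CDXX replicate 4, Oregon replicate 4 or Oregon replicate 5 (edgeR adjusted p = 0.06 to 0.0915), while Pof and Unr were not called. With scaling factors from genes off X, 4 of the 19 were lower, and 4 were lower in the fit of the 6 libraries.

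In the sex pathway, the X-linked switch gene Sxl had 544, 633 and 501 CPM in CDXX, against 371, 437 and 341 in Oregon (log2 fold change 0.55 ± 0.12, edgeR adjusted p = 0.00498), and CDXY was at 427, 526 and 502. The Sxl splicing cofactor genes vir (−0.43, edgeR adjusted p = 0.00277) and fl(2)d (−0.26, edgeR adjusted p = 0.0126) fell, and tra, tra2 and dsx were not called. The largest change was in fru, a transcription factor gene of neurons whose male-specific forms direct courtship (FBgn0004652, 3R, 18414273 to 18545586). It had 159, 169 and 207 CPM in CDXX, against 39, 56.2 and 77.4 in Oregon (1.63 ± 0.31, edgeR adjusted p = 0.0024), with CDXY at 28.9, 39.2 and 58.2. Gene counts do not separate its isoforms. FDY, annotated on Y, had 93.7, 84.9 and 89.5 CPM in CDXX, against 109, 110 and 130 in Oregon, though females of neither genotype have a Y. It is a near copy of the autosomal vig2, so these reads need not come from Y.

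Markers of brain cell types changed little as groups. Of 33 neuronal and synaptic genes, 1 rose and 1 fell, where 3 rose without Oregon replicate 6 and 2 fell without Oregon replicate 4 or with batch as a block. The X-linked sodium channel gene para had 613, 549 and 618 CPM in CDXX, against 204, 353 and 291 in Oregon (log2 fold change 1.07 ± 0.27, edgeR adjusted p = 0.00994). The acetylcholinesterase gene Ace had 106, 123 and 125 CPM in CDXX, against 353, 213 and 178 in Oregon (−1.07 ± 0.23, edgeR adjusted p = 0.00391). Of 25 neuroblast and progenitor genes, 3 rose and 6 fell. The polarity genes baz (0.89 ± 0.15, edgeR adjusted p = 0.00102) and par-6 (0.49 ± 0.10, edgeR adjusted p = 0.00251), both X-linked, rose. Their autosomal partner in spindle orientation, pins, had 59.3, 69.6 and 58.7 CPM in CDXX, against 92.8, 92.0 and 82.0 in Oregon (−0.51 ± 0.10, edgeR adjusted p = 0.00226). The progenitor gene erm had 44.5, 58.4 and 28.5 CPM in CDXX, against 65.2, 85.2 and 83.0 in Oregon (−0.83 ± 0.20, edgeR adjusted p = 0.00797). The lower neuroblast genes numbered 3 without CDXX replicate 4, 4 without Oregon replicate 6 and 2 in the fit of the 6 libraries. Of 17 optic lobe genes, 4 fell and 1 rose, and the retinal and lamina gene dac had 88.5, 97.3 and 68.3 CPM in CDXX, against 149, 159 and 102 in Oregon (−0.69 ± 0.18, edgeR adjusted p = 0.0108). The lower optic lobe genes numbered 2 without CDXX replicate 4, CDXX replicate 6, Oregon replicate 4 or Oregon replicate 5. The 1 that rose, dpp, lost the call without any of the 6 libraries (edgeR adjusted p = 0.0528 to 0.13).

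Glial genes were called in both directions at about the shares of all genes, which were 18.7% higher and 16.6% lower. Of 20, 3 rose and 4 fell, yet their summed level was 3887 to 3978 CPM in CDXX, against 2574 to 3272 in Oregon and 2588 to 2970 in CDXY. Much of the difference in the sum came from 1 gene. Glutamine synthetase Gs2, on X, had 1070, 1050 and 1193 CPM in CDXX, against 164, 370 and 603 in Oregon (log2 fold change 1.54 ± 0.54, edgeR adjusted p = 0.0435, and 0.0668 to 0.127 without any library other than Oregon replicate 6). The blood-brain barrier gene moody, also on X, had 129, 145 and 109 CPM in CDXX, against 53.3, 34.4 and 58.7 in Oregon (1.39 ± 0.39, edgeR adjusted p = 0.0175, and 0.07 without Oregon replicate 5). The ensheathing and barrier genes wrapper (−0.45 ± 0.08, edgeR adjusted p = 0.00172), axo (−0.81 ± 0.20, edgeR adjusted p = 0.00838) and Nrx-IV (−0.38 ± 0.10, edgeR adjusted p = 0.0122) fell, and the transporter gene Eaat2 had 108, 93.2 and 90.9 CPM in CDXX, against 151, 189 and 127 in Oregon (−0.68 ± 0.18, edgeR adjusted p = 0.0121, and 0.0516 without Oregon replicate 5). The count of 3 higher genes was 1 without Oregon replicate 4, 0 without Oregon replicate 5 and 6 without Oregon replicate 6, and DESeq2 called 5 with all libraries.

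Markers of tissues that dissection can carry along differed between the groups. Of 15 muscle genes, 12 rose. The myosin light chain gene Mlc2 had 69.9, 115 and 88.9 CPM in CDXX, against 2.7, 6.4 and 13.6 in Oregon (log2 fold change 3.59 ± 0.55, edgeR adjusted p = 0.000736), and Mhc had 10.0, 57.4 and 14.3 CPM, against 0.501, 2.77 and 3.50 (edgeR adjusted p = 0.0325, but 0.0532 to 0.131 without CDXX replicate 5 or any Oregon replicate). The higher muscle genes numbered 4 without CDXX replicate 5, 4 without Oregon replicate 4, and 7 without Oregon replicate 5 or 6. Of 15 genes of the hemocyte list, which also holds basement membrane genes such as LanA, vkg and Col4a1, 7 rose. The laminin gene LanA had 523, 537 and 734 CPM in CDXX, against 145, 144 and 147 in Oregon (2.04 ± 0.39, edgeR adjusted p = 0.00247), and the scavenger receptor gene Sr-CI had 13.8, 13.4 and 81.2 CPM, against 2.20, 1.22 and 2.78 (4.13 ± 0.92, edgeR adjusted p = 0.00538). Hml had 81.9, 73.3 and 447 CPM in CDXX, against 14, 13.1 and 22.2 in Oregon, while the other defining marker, NimC1, had 4.59, 5.18 and 3.35 against 9.52, 2.05 and 2.49. NimC1 was not called, nor were Pxn, srp, eater, crq, He, PPO1 and PPO2, so the rise cannot be read as one of hemocytes alone. The genes of the hemocyte list summed to 1377 to 4687 CPM in CDXX, against 490 to 697 in Oregon. The count of 7 was 2 without CDXX replicate 6, Oregon replicate 4 or Oregon replicate 5. Of 9 salivary gland genes, fkh and the glue gene Sgs4 fell, and the summed level was 38.2 to 47.1 CPM in CDXX, against 64.6 to 113 in Oregon. Without CDXX replicate 4 or CDXX replicate 6, 1 of the 9 fell. Of 9 fat body genes, 0 rose and 1, Mtp, fell (−0.47, edgeR adjusted p = 0.0171), or 0 without CDXX replicate 4 or Oregon replicate 4. Their summed level was 288 to 400 CPM in CDXX, against 440 to 543 in Oregon. The fat body markers Lsp1beta (14.1, 11 and 6.1 CPM in CDXX, against 4.39, 2.30 and 3.83) and Fbp1 (5.53, 5.75 and 0.641 against 61.8, 4.86 and 2.82) were not called. The 12 eye-antennal disc genes, 5 of them X-linked, summed to 647 to 802 CPM in CDXX, against 445 to 578 in Oregon. Among them 3 (25.0%) rose and 1 (8.33%) fell, against 18.7% and 16.6% of all genes. The 23 cuticle genes summed to 321 to 1585 CPM in CDXX and 258 to 505 in Oregon, with overlap, and 5 (21.7%) rose and 1 (4.35%) fell. The part of carried tissue in the other results was not tested.

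The NF-kappaB genes Dif and dl, which act in the immune response, rose without resting on 1 library. Dif had 30.6, 36.2 and 44.3 CPM in CDXX, against 9.86, 16.6 and 15.8 in Oregon (log2 fold change 1.39 ± 0.21, edgeR adjusted p = 0.000618, with CG15141 on the opposite strand). Its neighbour in the Toll pathway, dl, had 29.2, 28.8 and 37.4 CPM in CDXX, against 7.63, 12.1 and 10.3 in Oregon (1.67 ± 0.30, edgeR adjusted p = 0.0016). Of 11 immune genes, 5 rose in all. Tep4, a thioester protein gene of hemocytes, had 50.1, 53.7 and 751 CPM in CDXX, against 31.1, 29.1 and 20.3 in Oregon, and was not called without CDXX replicate 6 (edgeR adjusted p = 0.368) or with batch as a block (0.0755). The count of 5 was 2 without CDXX replicate 6, Oregon replicate 4 or Oregon replicate 6 and 3 without Oregon replicate 5.

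The largest rises on the log2 scale were mostly driven by CDXX replicate 6. CG14277 (FBgn0032008, 2L, 8242486 to 8243426) was an exception, with 84.4, 42.9 and 18.7 CPM in CDXX, against 0.539, 0.072 and 0.144 in Oregon (log2 fold change 7.59 ± 1.34, edgeR adjusted p = 0.00156), and it overlaps CG43057 on the opposite strand. The fatty acid synthase gene FASN2 had 1.37, 0.528 and 93.4 CPM in CDXX, against 0.270, 0.252 and 0.253 in Oregon, and its edgeR adjusted p of 0.0202 became 0.316 without CDXX replicate 6 and 0.0573 to 0.0658 without any Oregon replicate. CG7910, CG18747, mthl6, CG5773 and the photoreceptor opsin gene Rh6 behaved alike, with edgeR adjusted p of 0.127 to 0.36 without that library, and each also lost the call without at least 2 of the Oregon replicates. The largest falls were shared by all libraries in several genes. CG11425 had 2.67, 9.5 and 2.56 CPM in CDXX, against 45.0, 38.6 and 28.1 in Oregon (−2.94 ± 0.52, edgeR adjusted p = 0.00154). DNaseII, an acid nuclease gene, had 7.65, 15.0 and 4.41 CPM in CDXX, against 56.6, 57.7 and 43.7 in Oregon (−2.56 ± 0.35, edgeR adjusted p = 0.000385). The myoblast fusion gene rost had 12.6, 43.3 and 8.89 CPM in CDXX, against 210, 79.8 and 109 in Oregon (−2.62 ± 0.55, edgeR adjusted p = 0.00404).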

How the data were processed

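Libraries of polyadenylated RNA from larval brains were prepared with NEBNext kits and amplified in 13 cycles, per the labels' protocols. The kit named there does not mark strand. Values were raw read counts per gene, deposited by the authors without normalization, for 8990 genes in 15 libraries. Trim Galore, STAR 2.7.10a, featureCounts and dm6 are named per the submitters' processing notes. How multi-mapping reads were counted is not given in the sources used here. No gene had a mean count under 27, so genes below that were not analysed here. Symbols and coordinates were looked up by identifier in an Ensembl annotation of that assembly. It named 8939 genes and left 51 unnamed.

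Groups came from genotype labels. Genes were tested with edgeR 4.0.16 in R 4.3.3 (quasi-likelihood F test, robust, TMM scaling, filterByExpr, 8981 genes kept, 9 removed), with 1 mean for each of 5 groups over 15 libraries and the contrast CDXX minus Oregon. P-values were two-sided, adjusted by Benjamini and Hochberg over all genes, and a gene was called under 0.05. CPM used TMM-scaled totals, and centred log2 CPM used a prior count of 2. Biological variation had a coefficient of 24.9%. Replicates came from different days, and pairs within a group differed by 70.2 to 193 per gene on a chi-square scale where sampling noise gives 1, so each counted as its own sample. In 10 draws of simulated counts for this comparison over 8981 genes, 25.7% to 40% of genes changed 1.5-fold, 60% to 74.3% changed 2-fold and 76.7% to 96.7% changed 4-fold were called, and 1.65% to 6.06% of calls were false. Each draw changed 70, 70 and 60 genes by these folds, with rises and falls alike and no shift of X. That is far fewer than were called in the data, so these rates need not hold for the data.

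Each sample carries a batch label, and the series' design text says that replicates came from different days, without saying that a batch number is a day. Libraries that share a batch label were taken as pairs in the block. The correlation of deviations from the group means between CDXX and Oregon of the same batch was −0.125, 0.065 and 0.207. A fit with batch as a block was an alternative, as were DESeq2 1.42.0, its size factors, other filters, the 6 libraries alone, scaling from genes off X and leaving out each library. The comparison, its 37 gene lists and the alternatives were chosen with earlier results of these data known, and symbols in the lists were matched to the annotation after the table was seen. Genes were named by rule. These were the 8 largest rises and falls with at least 5 CPM in the higher group and no overlap, up to 4 called members of each list by adjusted p, X-linked genes by level and change, genes at 3 counts or fewer in all libraries of 1 group, and all dosage compensation genes. Genes outside the rule were chosen after their values were seen. These were Hsp23, Hsp27, Hsp83, Hsp70Aa, Hsc70-3, crc, Thor, Diap1, Irbp, hid, rpr, upd1, bsk, RpL22, RpL41, RpS15Ab, RpS19b, mRpL32, mRpL52, Hsp26, l(2)efl, CCT2, CCT6, the 4 X-linked proteasome genes, Ldh, br, EcR, Gs2, moody, Syp, chinmo and the tissue markers elav, repo, brp, nSyb, dpn, Mhc, Hml, NimC1, Lsp1beta and Fbp1. Dcp-1, Drice, Dronc, Dark, Pxn, srp, eater, crq, He, PPO1 and PPO2 were also named after their values were seen. Mco4, CG11617, Blm, CG4991, Cpr11A and mt:CoIII were set beside CDXY after its values were seen. Mco4, CG11617 and mt:CoIII were also set beside C2L and T2L after those values were seen.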

Additional observations from a re-analysis of the deposited data

How the results depend on the processing

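The difference of medians between X-linked and other genes was 0.530 to 0.567 under the 13 alternatives. Genes changed in CDXX against Oregon numbered 3173, and 1877 when only the 6 libraries were fitted. Leaving out 1 library gave 2314 to 2983 changed genes, 1238 to 1592 higher and 977 to 1391 lower. Genes lower numbered 1493, against 750 with the 6 libraries alone and 944 with scaling factors from genes off X. DESeq2 called 3665 genes and the fit with batch as a replicate block 3437, of which 3059 were called without the block. Of 154 named genes that were called, 6 lost the call with the block, 9 with scaling from genes off X, 42 of 151 with the 6 libraries alone, and 11 to 33 when 1 library was left out. Among counts of list members, the block moved that of the ribosome most, and small counts of 0 to 4 genes in the cell cycle, insulin, neuron, juvenile hormone, cuticle, eye disc, fat body and CCT lists by over 1.5 times. Among named genes under these alternatives 1 changed sign. The log2 fold change of Cpr67B, a cuticle gene, was −0.46 without CDXX replicate 5 (adjusted p = 0.366) and up to 4.34 without other libraries. The cause of these shifts was not tested. With 3 libraries a group, changes of 1.5-fold were mostly missed in the simulation, which changed far fewer genes than were called in the data. Genes with few counts rest on single libraries.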

Other observations

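Few of the 37 genes of the cell cycle and mitosis were called. The 2 that rose were X-linked, and 2 fell, or 4 with batch as a block. The retinoblastoma gene Rbf had 119, 116 and 112 CPM in CDXX, against 83.3, 95.8 and 88.5 in Oregon (log2 fold change 0.37 ± 0.07, edgeR adjusted p = 0.00173). The cyclin gene CycD had 46.9, 56.8 and 45.4 CPM in CDXX, against 36.1, 23.5 and 28.0 in Oregon (0.77 ± 0.19, edgeR adjusted p = 0.00867). The spindle checkpoint kinase gene Bub1 and the topoisomerase gene Top2 fell, but each lost the call without some library, Bub1 without CDXX replicate 6 or Oregon replicate 5 (edgeR adjusted p = 0.061 and 0.0565), and Top2 without CDXX replicate 4, CDXX replicate 5 or Oregon replicate 6 (0.0586 to 0.0929). Without Oregon replicate 5, 6 of the 37 fell.

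Among temporal factors, which mark the age of neuroblasts and the birth order of their neurons, 3 of 21 rose and 1, D, fell (edgeR adjusted p = 0.0148, and 0.055 without CDXX replicate 6). Imp, the X-linked RNA-binding protein gene that is high in young neuroblasts, had 853, 741 and 1031 CPM in CDXX, against 306, 466 and 439 in Oregon (log2 fold change 1.12 ± 0.18, edgeR adjusted p = 0.00101), with noncoding genes overlapping it on both strands. Its opposing partner Syp, which is high in old neuroblasts, had 1601, 2071 and 1750 CPM in CDXX, against 2113, 1742 and 1662 in Oregon, and was not called (edgeR adjusted p = 0.897). The Imp target chinmo had 961, 836 and 1199 CPM in CDXX, against 585, 779 and 680 in Oregon, without overlap but not called (0.55 ± 0.20, edgeR adjusted p = 0.0507, and 0.0365 without CDXX replicate 5). CDXY was at 369, 410 and 435 CPM for Imp.

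From the mitochondrial genome, 3 of 13 protein-coding genes rose. The count of 3 was 1 without CDXX replicate 5, CDXX replicate 6, Oregon replicate 4 or Oregon replicate 5. Against CDXY, 4 of the 13 were higher in CDXX. The cytochrome oxidase gene mt:CoIII had 4708, 5868 and 4550 CPM in CDXX, against 3110, 3313 and 3895 in Oregon (log2 fold change 0.55 ± 0.13, edgeR adjusted p = 0.00785). In CDXY it had 3990, 3636 and 4683 CPM, and it was not called between CDXX and CDXY (0.30, edgeR adjusted p = 0.0865). C2L (4073 to 4514 CPM) and T2L (4139 to 5145 CPM) also lay above every Oregon library for this gene.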
